A study of Homo sapiens with 6 samples.

Results

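Histone genes were followed across 6 Affymetrix arrays hybridised with RNA of PC3, a human prostate cancer cell line. Members were all probe sets of the deposited value table whose annotation gave 1 gene symbol and whose symbol began with a histone name (H1-, H2AC, H2BC, H3C, H4C, H2AZ, H2AX, H2AJ, H3- or MACROH2A). The rule found 59 of 22277 probe sets, which belong to 50 of the 11963 genes with a single-gene probe set. By name, 42 genes (43 probe sets) were placed in the replication-dependent cluster group and 8 genes (16 probe sets) in the variant group. Of the 42, the reference places 38 on chromosome 6 and 3 on chromosome 1 (H2AC25, H2BC21 and H3-4). H2BC12L lies on chromosome 21, outside the gene clusters, and was kept in this group by its name.

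The arrays labelled PSMA (replicates 4 to 6) carry RNA of PC3 cells that were transfected, per the labels, with a pLNCX plasmid encoding PSMA, the prostate-specific membrane antigen made by the FOLH1 gene. The arrays labelled control (replicates 1 to 3) carry RNA of PC3 cells given the vector alone, although their titles and genotype call them wild type. Both kinds of cell were grown in RPMI medium and selected with puromycin. The labels do not say whether the selected cells were clones or pools, nor whether replicates were separate cultures, so the spread between them may be technical.

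Histones are the proteins around which nuclear DNA is wound: H2A, H2B, H3 and H4 form the core of the nucleosome and H1 binds the DNA between cores. The replication-dependent genes lie in clusters, are expressed in S phase to package newly made DNA, and give mRNAs that end in a stem-loop instead of a poly(A) tail. Variant genes lie alone, are mostly expressed independently of replication from polyadenylated mRNAs, and supply forms with special roles in transcription, repair and silencing. The labels name the standard Affymetrix protocol for cRNA and not the primer used, so how well mRNAs without a poly(A) tail were captured is not given in the sources used here.

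Several facts of the whole table bear on every value below. Signal on the probe set annotated to FOLH1 alone was 28.1 ± 3.80 (SD, n = 3) on arrays labelled PSMA and 60.5 ± 0.914 on arrays labelled control, against the labels, and the same direction held on the 4 probe sets annotated to FOLH1B or to both genes. Every direction is therefore given by label, and "rose" and "fell" refer to the arrays labelled PSMA, where FOLH1 signal was lower. For 28S ribosomal RNA, the control probe set of its middle stretch gave 675 ± 4.29 on arrays labelled PSMA. It gave 1498 ± 63.1 on arrays labelled control. In the same order, the 3'/5' ratio of GAPDH was 1.36 ± 0.0872 and 1.30 ± 0.0668. That of ACTB was larger, 4.44 ± 0.757 and 4.61 ± 0.658. The part of these measures in the results was not tested. All 5 epithelial markers (KRT8, KRT18, KRT19, EPCAM and CDH1) lay above the median of the table on all 6 arrays, with a summed level of 13233 to 13716 on arrays labelled PSMA and 16514 to 17012 on arrays labelled control. The 4 prostate luminal markers measured (KLK2, KLK3, TMPRSS2 and ACP3) and the 5 leucocyte markers measured lay below it on all 6. Of 6 fibroblast markers all but COL1A1 lay below it, and of 4 endothelial markers 3 did, the endothelial list summing to 111 to 125 on arrays labelled PSMA and 80.7 to 94.6 on arrays labelled control. Across probe sets, log2 values of arrays within a group had r = 0.9975 to 0.9981, against 0.9875 to 0.9879 between groups.

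Of the 59 histone probe sets, 30 lay above the median of all values (52.5, in arbitrary units) on at least 3 of the 6 arrays and were tested. The 29 others covered 27 cluster and 2 variant probe sets, and 28 genes had no tested probe set. Among the tested probe sets 28 were above this level on all 6 arrays. H2AC17 passed only through the arrays labelled control, so that its difference was in part fixed by the filter, and H3-3A was above it on all 3 arrays labelled PSMA and on 2 of the 3 arrays labelled control. None of the 8 cluster H3 genes with a probe set of its own was tested.

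**Figure D1:**
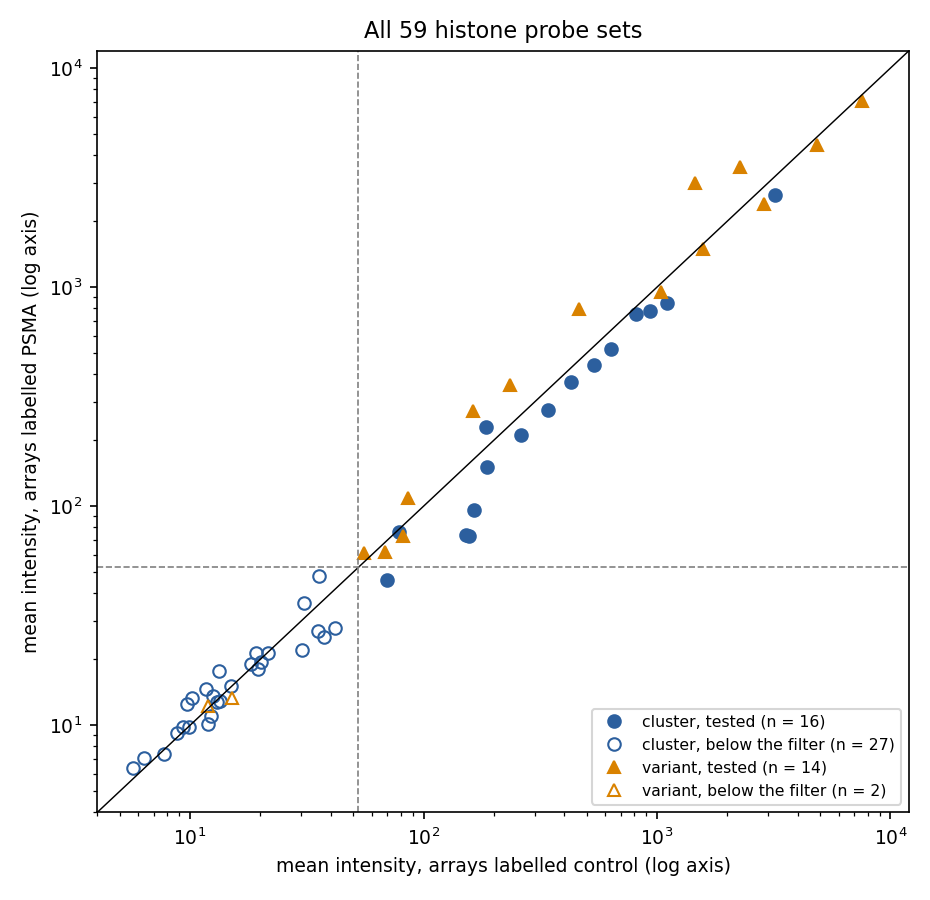
Mean intensity of each of the 59 histone probe sets on the 3 arrays labelled PSMA (vertical log axis) against the 3 arrays labelled control (horizontal log axis), in arbitrary units, with dashed lines at the median of all values (52.5) and a solid line of equality. Open symbols are the 29 probe sets below the filter; most filled circles (cluster genes, n = 16) lie under the line, while filled triangles (variants, n = 14) lie on both sides.

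Tested H2A and H2B genes of the replication-dependent clusters were lower on arrays labelled PSMA, while the few tested H1 and H4 genes were split and no cluster H3 gene was tested. Of 15 tested cluster genes, out of 42, 13 fell, 1 rose and 1 did not pass, whereas limma called 33.5% of all 7035 tested genes lower, 30.1% higher and 63.6% in either direction (adjusted p under 0.05). All 5 tested H2A genes and all 6 tested H2B genes fell. These counts hold H2AC17, and with the filter required on all 6 arrays, which leaves it out, 12 of 14 cluster genes fell. By probe set, 14 of 16 fell and 1 rose, against 32.4% lower and 28.2% higher among all 11303 tested probe sets. The median log2 difference was -0.30 over the 15 genes, beside -0.01 over all tested genes. Over all 42 cluster genes, fitted without the filter, the median was -0.060, with 16 lower and 6 higher. Without the filter, 16.1% of all 22215 probe sets were called lower and 15.9% higher. These shares count probe sets and not genes, and the share over all genes without the filter is not given here. In RNA of whole cultures, fewer cells that carry a transcript and less of it per cell cannot be told apart.

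H2AC8, a cluster H2A gene, read 69.5, 80.3 and 68.6 on arrays labelled PSMA, against 147, 163 and 162 on arrays labelled control. The groups were far apart, and H2AC8 was 2.16-fold lower (log2 difference -1.11, SE 0.0726, limma adjusted p = 5.1e-06). H4C8, which encodes core histone H4, read 80.1, 68.9 and 72.9 on arrays labelled PSMA and 139, 139.9 and 176 on arrays labelled control, 2.04-fold lower (log2 difference -1.03, SE 0.0982, limma adjusted p = 4.1e-05). These were the 2 histone probe sets that fell by 2-fold or more, a size reached by 2.42% of all tested probe sets. H2BC21, an H2B gene of the chromosome 1 cluster, read 94.9, 101 and 91.1 on arrays labelled PSMA, against 167, 170.5 and 158 on arrays labelled control. It was 1.73-fold lower, with no overlap (log2 difference -0.79, SE 0.0548, limma adjusted p = 7.3e-06).

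H2AC17, the gene that passed the filter through its control values, read 51.6, 44.2 and 42.5 on arrays labelled PSMA and 60.5, 75.8 and 72.2 on arrays labelled control. Its log2 difference was -0.59, given as a description because the filter chose it by its control values. H1-2, a linker histone that folds nucleosomes into higher-order chromatin, read 843, 846 and 862 on arrays labelled PSMA, against 1133, 1056 and 1132 on arrays labelled control. All 3 values were below the control values, and H1-2 fell by 0.38 on the log2 scale (SE 0.0463, limma adjusted p = 0.00017). H1-3, another linker histone gene, read 77.3, 63.3 and 88.0 against 55.7, 98.2 and 81.6 on arrays labelled control; the groups overlapped throughout, and the 95% interval of the log2 difference ran from -0.47 to 0.44.

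The remaining H2B genes fell by similar, small amounts. H2BC12 read 2579, 2595 and 2714 on arrays labelled PSMA and 3297, 3211 and 3140.3 on arrays labelled control (log2 difference -0.29, SE 0.0449, limma adjusted p = 0.00065). H2BC5 fell on both of its probe sets (log2 differences -0.28 and -0.22), H2BC6 by 0.29, H2BC9 by 0.31 and H2BC12L by 0.27 on the log2 scale, and in each of them the highest array labelled PSMA lay below the lowest array labelled control. Among H2A genes, H2AC25 fell by 0.32 and H2AC14 by 0.30 on the log2 scale, also without overlap. H2AC6 read 753, 739.8 and 759 on arrays labelled PSMA, against 794, 812 and 828 on arrays labelled control, a gap of 1.08-fold with limma adjusted p = 0.047. That call was lost when any of the 6 arrays was left out (limma adjusted p = 0.0676 to 0.144), the log2 difference staying between -0.13 and -0.10.

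H4C11, an H4 gene, was the exception among tested cluster genes. It read 243, 230.3 and 214 on arrays labelled PSMA, against 191, 181 and 182 on arrays labelled control, and rose 1.24-fold without overlap (log2 difference 0.31, SE 0.0565, limma adjusted p = 0.0015). Most H4 genes encode one and the same protein from differing sequences. The H4C11 probe set carries the suffix _x_at, by which the manufacturer marks sets with probes that match other transcripts. In all, 7 of the 16 tested cluster probe sets carry that suffix. Their log2 differences ran from -0.31 to 0.31 with a median of -0.28, while those of the 9 others ran from -1.11 to -0.02 with a median of -0.38. Signal of near-identical cluster genes cannot be told apart with certainty, so a value named for a cluster gene may hold signal of its relatives.

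**Figure D2:**
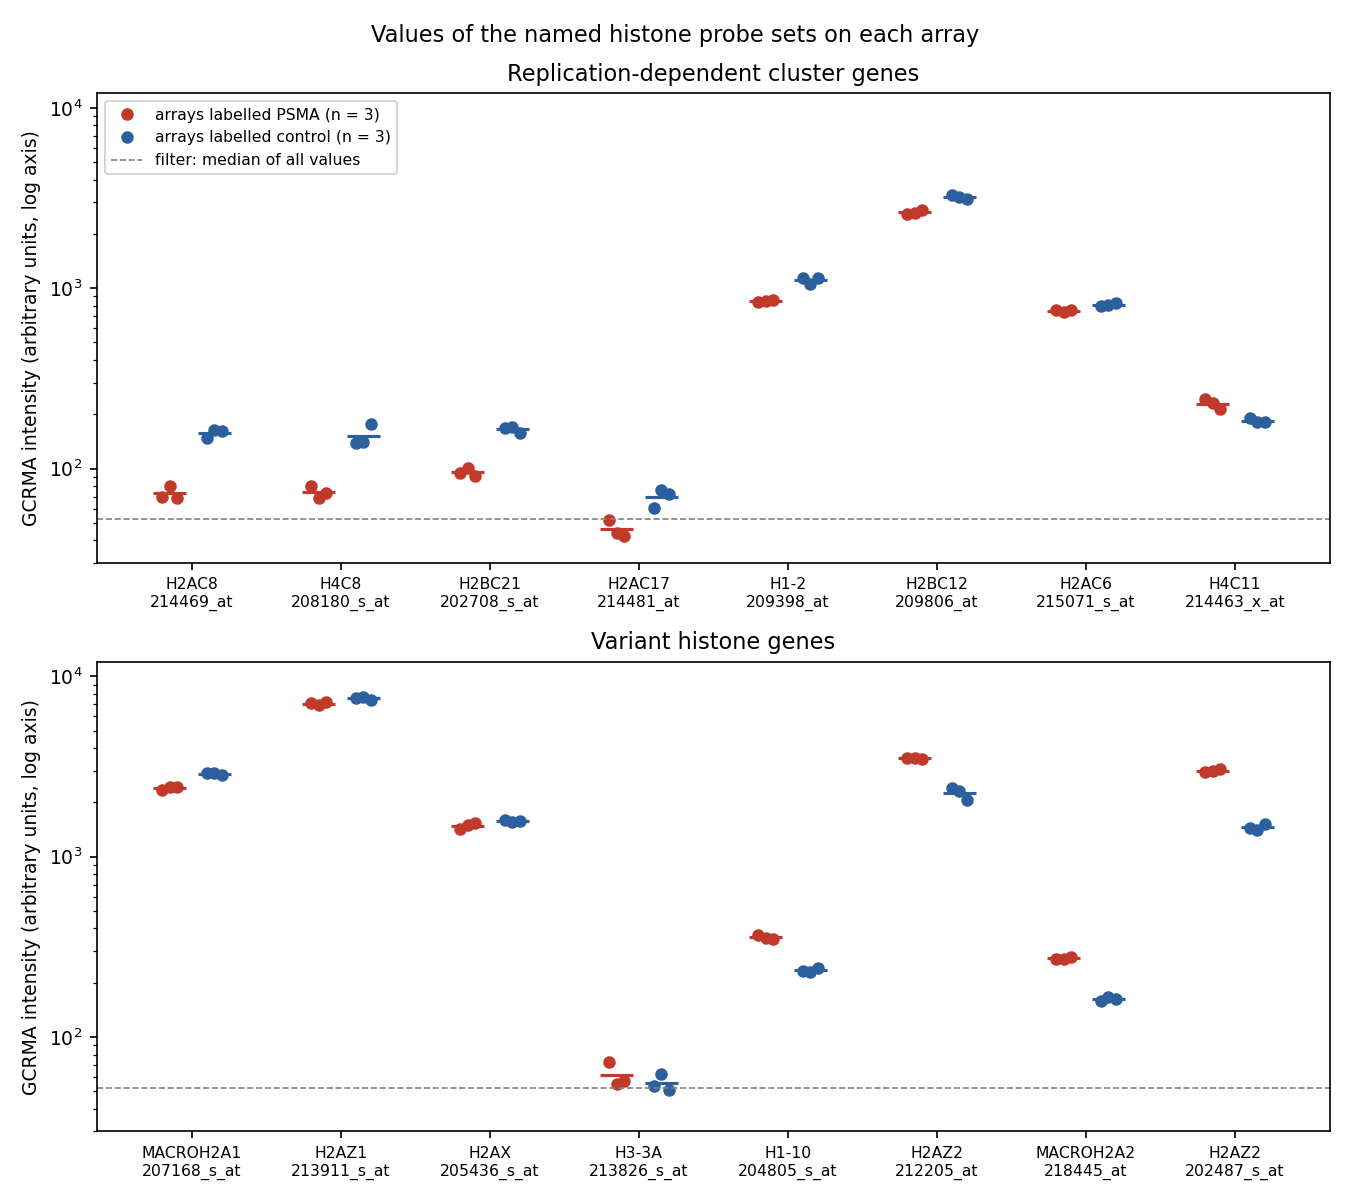
GCRMA intensity (log axis, arbitrary units) of the named histone probe sets on each array, arrays labelled PSMA left and arrays labelled control right of each position, 3 points per group with a line at the mean and a dashed line at the filter level (52.5). H2AC8, H4C8 and H2BC21 show the widest gaps among cluster genes, and H2AZ2 and MACROH2A2 among variants.

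Promoters of a few members are shown because all tested H2A and H2B genes of the clusters moved in the same direction. The part of promoter sequence in that direction was not tested. RefSeq (GRCh38.p14) gave a start site for 47 of the 50 member genes, and the 250 bases before each start were searched on both strands for 3 words. These were the CCAAT box, the TATA box spelled TATAAA, and the octamer known from H2B promoters, which the factor OCT1 reads, spelled ATTTGCAT. A gene with several start sites counted when any of them had a match. The octamer was found before 6 of 8 cluster H2A genes and 8 of 11 cluster H2B genes, against 2.03% of all 27305 genes in the table, and before 0 of 6 cluster H1, 0 of 7 cluster H3, 0 of 7 cluster H4 and 0 of 8 variant genes. CCAAT was present before 34 of 39 cluster genes and 6 of 8 variant genes, against 37.0% of all genes. TATAAA was present before 26 of 39 cluster genes and 3 of 8 variant genes, against 13.0% of all genes. Windows of H2AC14 and H2BC14, H2AC15 and H2BC15, and H2AC17 and H2BC17 overlap, since these genes start back to back, so their matches are shared in part. Overlap with promoters of genes that are no members was not checked, so other matches may be shared as well. Within H2A and H2B, the families that hold the octamer, it was present before 8 of the 10 cluster genes that fell and had a promoter entry, and before 6 of the 9 that were not tested. The 8 include H2AC17, whose difference was in part fixed by the filter.

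The 250 bases before the start are printed 5′ to 3′ on the strand of the gene, for the 3 cluster genes with the largest decrease outside the filter's reach, for H2BC12, and for the 2 variants with the largest increase, with matches on either strand in capitals. The stretches are chr6:26216671-26216920 on the plus strand for H2AC8, chr1:149886683-149886932 on the minus strand for H2BC21 and chr6:27146859-27147108 on the minus strand for H2BC12, where matches of TATAAA on both strands overlap. They are chr6:26285535-26285784 on the minus strand for H4C8, chr7:44848088-44848337 on the minus strand for H2AZ2 and chr10:70052596-70052845 on the plus strand for MACROH2A2.
H2AC8: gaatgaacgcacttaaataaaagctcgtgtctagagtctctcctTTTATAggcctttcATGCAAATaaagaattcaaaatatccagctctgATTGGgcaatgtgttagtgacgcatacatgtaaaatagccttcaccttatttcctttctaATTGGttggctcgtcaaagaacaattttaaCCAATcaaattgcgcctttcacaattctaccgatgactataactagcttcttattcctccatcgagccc
H2BC21: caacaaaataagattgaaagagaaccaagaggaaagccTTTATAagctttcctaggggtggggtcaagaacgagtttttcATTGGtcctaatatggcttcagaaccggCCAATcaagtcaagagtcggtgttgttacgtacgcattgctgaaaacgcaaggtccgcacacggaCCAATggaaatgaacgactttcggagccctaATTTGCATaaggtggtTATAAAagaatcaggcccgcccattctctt
H2BC12: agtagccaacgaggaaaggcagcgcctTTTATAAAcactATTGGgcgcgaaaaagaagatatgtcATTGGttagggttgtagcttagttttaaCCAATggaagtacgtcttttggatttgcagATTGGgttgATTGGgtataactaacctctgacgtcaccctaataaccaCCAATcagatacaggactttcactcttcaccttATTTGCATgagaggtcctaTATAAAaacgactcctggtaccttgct
H4C8: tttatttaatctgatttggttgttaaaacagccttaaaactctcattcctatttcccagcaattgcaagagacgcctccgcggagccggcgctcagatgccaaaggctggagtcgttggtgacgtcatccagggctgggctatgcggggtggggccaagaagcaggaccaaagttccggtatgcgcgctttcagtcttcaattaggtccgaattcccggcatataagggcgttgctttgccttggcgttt
H2AZ2: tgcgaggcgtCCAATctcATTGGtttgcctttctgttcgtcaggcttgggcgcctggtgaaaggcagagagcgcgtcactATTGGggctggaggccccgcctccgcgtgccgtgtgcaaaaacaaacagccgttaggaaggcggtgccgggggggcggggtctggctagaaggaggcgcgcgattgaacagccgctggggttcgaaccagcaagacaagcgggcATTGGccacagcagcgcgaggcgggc
MACROH2A2: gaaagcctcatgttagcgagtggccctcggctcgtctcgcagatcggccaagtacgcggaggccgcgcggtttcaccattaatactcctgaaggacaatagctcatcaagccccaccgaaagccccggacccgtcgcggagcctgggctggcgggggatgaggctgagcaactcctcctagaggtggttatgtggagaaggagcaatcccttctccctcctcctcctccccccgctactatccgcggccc
H2BC21 and H2BC12 have the octamer and TATAAA in the same order ahead of the start, H2AC8 has both in the opposite orientation further upstream, and H4C8 and MACROH2A2 have no match to the 3 searched words in this window. H2AZ2 has CCAAT alone.

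Variant histone genes went both ways, with 3 of 7 tested genes higher (H2AZ2, MACROH2A2 and H1-10), 1 lower (MACROH2A1) and 3 not past the threshold (H2AZ1, H2AX and H3-3A). That share is close to the 63.6% of all tested genes that limma called. By probe set 6 of 14 rose and 3 fell. The median log2 difference over the 7 genes was 0.13, which is the value of H3-3A, read on a probe set near the filter level.

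H2AZ2 encodes H2A.Z.2, a form of H2A found around transcription start sites, and was measured by 3 probe sets that all rose. The probe set with the widest gap read 2936, 2974 and 3069 on arrays labelled PSMA, against 1446, 1406 and 1517 on arrays labelled control, 2.06-fold higher (log2 difference 1.04, SE 0.0472, limma adjusted p = 7.9e-07). It was the only histone probe set to rise by 2-fold or more, as 1.7% of all tested probe sets did. The brightest one read 3517, 3546 and 3498 against 2401, 2325 and 2067 on arrays labelled control, 1.56-fold higher, and the third was 1.72-fold higher. None of the 3 probe sets had groups that overlapped. Its close relative H2AZ1, which encodes H2A.Z.1, read 7078, 6904 and 7191 on arrays labelled PSMA, against 7597, 7669.5 and 7376 on arrays labelled control, on its brighter probe set. The values lay apart but the difference was small (log2 -0.10, 95% interval -0.20 to 0.00, limma adjusted p = 0.082), and the dimmer H2AZ1 set was lower by a log2 difference of -0.12 (limma adjusted p = 0.029).

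The 2 macroH2A genes, whose proteins carry a large additional domain and are known from silent chromatin, went in opposite directions. MACROH2A2 read 271, 270.2 and 278 on arrays labelled PSMA, against 158, 166 and 163 on arrays labelled control, 1.68-fold higher (log2 difference 0.75, SE 0.0436, limma adjusted p = 2.8e-06). MACROH2A1 read 2351, 2447 and 2420.0 on arrays labelled PSMA and 2899.5, 2903 and 2842 on arrays labelled control on its brightest probe set, and fell by 0.26 on the log2 scale (SE 0.0418, limma adjusted p = 0.00081). Its 3 probe sets disagreed: another fell by 0.13, while the dimmest rose by 0.34 with overlapping groups (94.1, 109.8 and 125 on arrays labelled PSMA, against 87.7, 75.6 and 95.2 on arrays labelled control). Which isoforms each probe set reads was not examined here.

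H1-10, a linker histone expressed independently of replication, read 367, 352 and 351 on arrays labelled PSMA, against 233, 229.9 and 242 on arrays labelled control. It rose 1.52-fold with no overlap (log2 difference 0.60, SE 0.0446, limma adjusted p = 1e-05), while the cluster linker histone H1-2 fell on the same arrays. H2AX, the variant that is phosphorylated at DNA breaks, read 1421, 1505 and 1538 on arrays labelled PSMA and 1598, 1548 and 1581 on arrays labelled control on its brightest probe set. The log2 difference was -0.08 (95% interval -0.19 to 0.02, limma adjusted p = 0.16), and its 2 other tested probe sets had -0.14 and -0.16 with overlapping groups. H3-3A, which encodes the replacement histone H3.3, was near the filter level on its single-gene probe set, with 72.5, 54.6 and 56.9 on arrays labelled PSMA against 53.7, 62.5 and 51.1 on arrays labelled control. The groups overlapped (log2 difference 0.13, 95% interval -0.13 to 0.40, limma adjusted p = 0.35). The 8 probe sets shared by the H3.3 genes, given under Other observations, all rose.

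**Figure D3:**
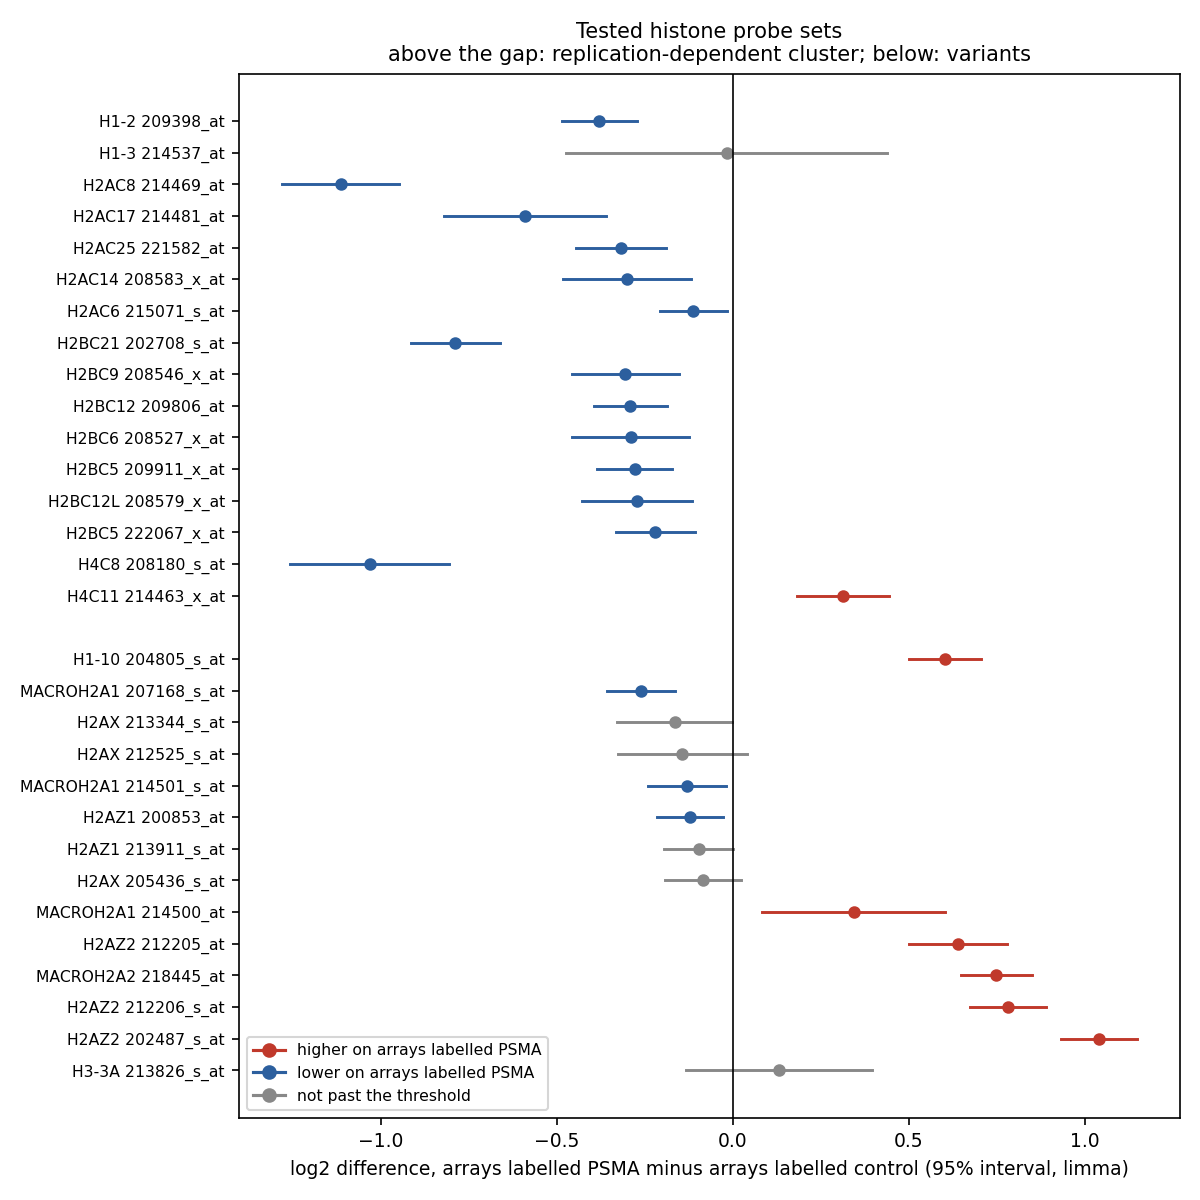
Log2 difference, arrays labelled PSMA minus arrays labelled control, of the 30 tested histone probe sets, with 95% intervals from limma (n = 3 per group); cluster probe sets stand above the gap and variants below it. All cluster points except H4C11 lie left of 0, from -1.11 to -0.02, and variant points run from -0.26 to 1.04.

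**Figure D4:**
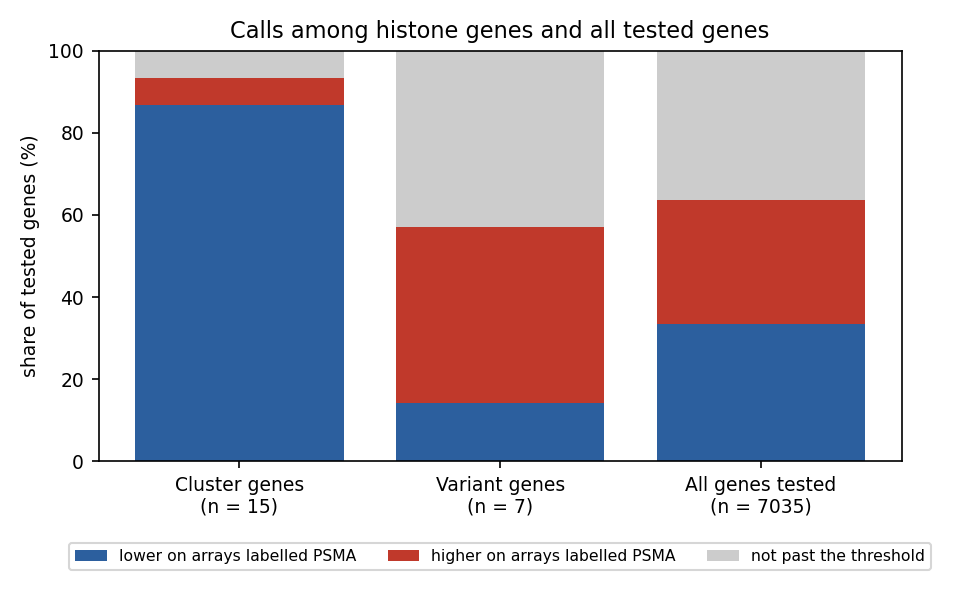
Share of tested genes that limma called lower or higher on arrays labelled PSMA, or that did not pass, for 15 cluster genes, 7 variant genes and all 7035 tested genes. Lower calls fill most of the cluster bar, against 33.5% of all genes.

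Over all 30 tested probe sets, 24 passed (7 higher, 17 lower), against 60.6% of all probe sets. In 25 the groups did not overlap, against 67.3% of all: 6 lay wholly higher on arrays labelled PSMA, against 31.4%, and 19 wholly lower, against 35.9%. When limma tested against a minimum fold of 1.5, it called 6 of the 30, against 6.61% of all probe sets, and 4 of the 22 genes, against 7.48% of all genes. The probe sets were those of H2AC8, H4C8 and H2BC21, which were lower, and MACROH2A2 and 2 of H2AZ2, which were higher. Without probe sets of the _x_at type, 8 of 9 tested cluster genes were called lower. These 8 genes, and the 17 and 19 lower probe sets above, hold H2AC17, whose difference was in part fixed by the filter.

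The 29 probe sets below the filter were dim in both groups, with means from 6.38 to 47.9 on arrays labelled PSMA and from 5.72 to 41.7 on arrays labelled control. A fit without the filter called 4 of them higher (H1-1, H2BC15, H3-4 and H3C8) and 4 lower (H2AC4, H2BC3, H2BC11 and H4C5), against 15.9% higher, 16.1% lower and 32.0% in either direction among all 22215 probe sets. The groups did not overlap in 11 of them, 7 higher and 4 lower, against 44.9% of all probe sets (22.6% higher, 22.3% lower). The 4 lower ones fell by 0.39 to 0.59 on the log2 scale and the 4 higher ones rose by 0.33 to 0.42. Their median log2 difference was 0.01. H2AJ, a variant H2A gene, was among the dim ones, at 13.3 on arrays labelled PSMA and 15.1 on arrays labelled control.

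Genes beside the named histones on the chromosome were set next to them, using the 5 nearest tested non-histone genes on each side in RefSeq order. This comparison was added after the values had been seen, and is read beside the 30.1% of all tested genes called higher and 33.5% called lower. The part of chromosome position in the differences was not tested. Around H2AZ2 on chromosome 7, 9 of the 10 neighbours rose, with a median log2 difference of 0.88 beside 0.64 for H2AZ2 itself. Around MACROH2A2 on chromosome 10, 8 of 10 rose with a median of 0.33, beside 0.75 for MACROH2A2. Around H1-10 on chromosome 3, the other raised variant, 2 rose and 3 fell, with a median of -0.06 beside 0.60 for H1-10. Around H3-3A on chromosome 1, 8 of 10 rose (median 0.39), while the single-gene probe set of H3-3A, near the filter level, did not pass. All 8 probe sets shared by the H3.3 genes rose (log2 differences from 0.31 to 1.14), against 28.2% of all tested probe sets. Each of the 8 is annotated to 3 genes, so their signal cannot be placed at H3-3A on chromosome 1. H2BC21 fell, and of its 10 neighbours on chromosome 1, 7 rose and the other 3 did not pass (median 0.20). Around H2AC8 and H4C8, which share the same 10 neighbours on chromosome 6, 4 fell and the median was -0.05. Of 9 tested non-histone genes listed from the 6p22 histone region, TRIM38 (log2 difference -0.63), an E3 ubiquitin ligase, and PRSS16 (-0.98), a thymus-type serine protease, fell and 7 did not pass, with a median of -0.05.

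**Figure D5:**
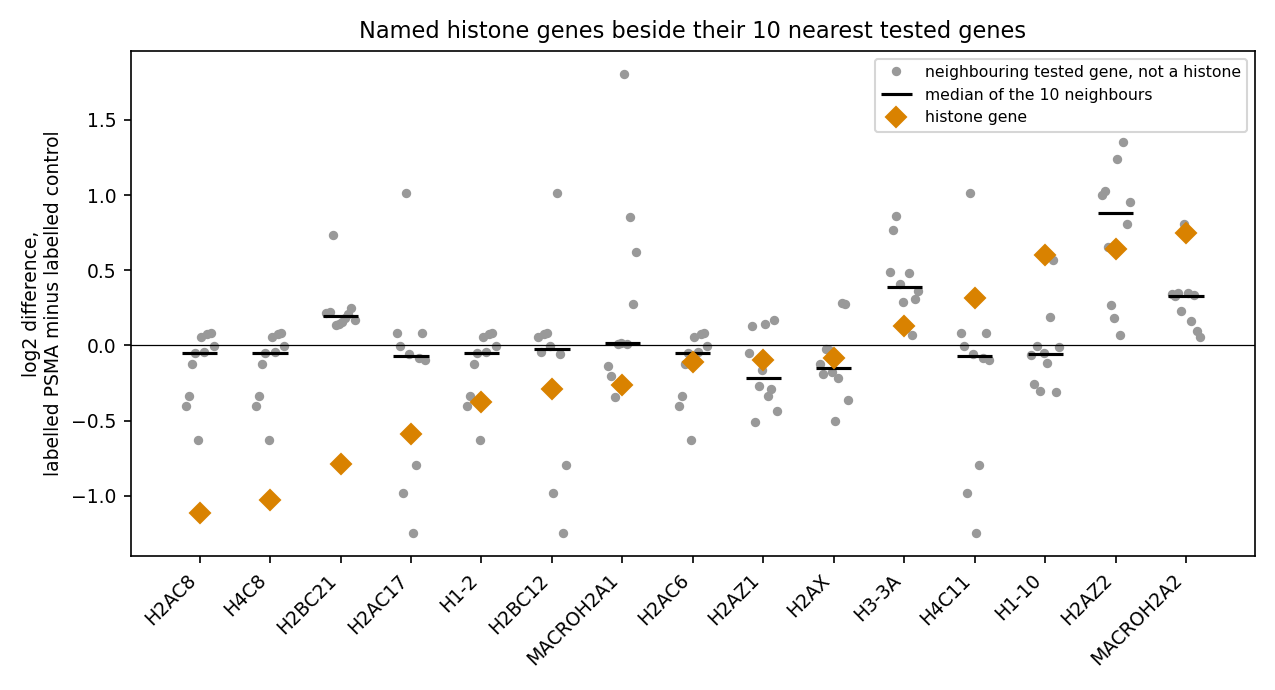
Log2 difference (arrays labelled PSMA minus arrays labelled control) of each named histone gene (diamond), of its 10 nearest tested non-histone genes (grey points) and of their median (bar). H2AZ2 lies among raised neighbours (median 0.88), and H2AC8, H4C8 and H2BC21 lie below all of theirs.

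Of 10 tested genes that make and process histone mRNA 2 rose, 3 fell and 5 did not pass, with a median log2 difference of 0.03. Among all tested genes 63.6% were called, so this list held no more calls than the background. COIL, the scaffold of Cajal bodies, rose by 0.32 and CARM1, an arginine methyltransferase, by 0.23 on the log2 scale. CDK9, the kinase of transcription elongation, fell by 0.30 and HINFP, which activates H4 genes, by 0.22. SLBP, which binds the stem-loop of replication-dependent mRNAs, averaged 1141 ± 17.8 on arrays labelled PSMA and 1069 ± 32.5 on arrays labelled control (log2 difference 0.09, limma adjusted p = 0.088). NPAT, the cyclin E-CDK2 target that activates the clusters, had a log2 difference of 0.09 (limma adjusted p = 0.2).

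S phase genes, whose products act when the cluster genes are expressed, were more often higher than lower: 9 of 22 rose, 2 fell and 11 did not pass, with a median log2 difference of 0.12. POLA1, the catalytic subunit of the primase-bearing polymerase, averaged 556 ± 13.0 on arrays labelled PSMA and 232 ± 10.6 on arrays labelled control (SD, n = 3), 2.39-fold higher. CCNE2, which drives entry into S phase, rose 1.83-fold. The ones that fell were RRM1, the large subunit of ribonucleotide reductase (-0.28), and CCNE1 (-0.26). Among all tested genes 30.1% were called higher and 33.5% lower. In either direction 63.6% of all tested genes were called, a larger share than on this list.

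Histone chaperones carry newly made histones to DNA, and of 28 tested genes for them and their partners 9 rose, 3 fell and 16 did not pass (median log2 difference 0.02), a smaller share of calls than the 63.6% over all tested genes. NAP1L2, a relative of the H2A-H2B chaperone NAP1L1, rose 2.70-fold. NAP1L3, another relative counted among the 9, passed the filter only through the arrays labelled PSMA, so that its difference was in part fixed by the filter. It averaged 297 ± 5.57 on arrays labelled PSMA and 32.7 ± 1.97 on arrays labelled control (SD, n = 3), whereas NAP1L1 itself was not past the threshold (log2 difference 0.04). NAP1L4 fell by 0.31 and ASF1A, a chaperone of H3-H4, by 0.29 on the log2 scale. Of the genes that act on H2A.Z, EP400, the ATPase of a complex that inserts it, rose by 0.79, VPS72 by 0.19 and ANP32E, which removes it, by 0.25, while SRCAP was not past the threshold (log2 difference -0.07). Of 6 tested genes around CENP-A, the H3 variant of centromeres, 3 rose and 3 did not pass. Among all tested genes 30.1% were called higher and 63.6% in either direction. HJURP, the chaperone of CENP-A, rose by 0.46, OIP5 by 0.33 and MIS18A by 0.15. CENPA itself (log2 difference 0.18, limma adjusted p = 0.082), CENPC (-0.07) and CENPN (0.04) were not past the threshold.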

How the data were processed

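Arrays were grouped by their titles. The deposited intensity values, 1 per probe set and array, were made by the authors with GCRMA, per the submitters' processing notes; its version and later steps are not given in the sources used here. Their scale was not stated and was taken as linear from its range. Dim values depend on that background correction, and the number of arrays (3 per group) limits the precision.

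Here, values were log2-transformed with no pseudocount. The 62 control probe sets were left out, and 11303 others that exceeded the median value (52.5) on 3 or more of 6 arrays were kept. Differences were fitted over all of these with limma 3.58.1 in R 4.3.3 (lmFit, eBayes), with two-sided p-values adjusted by Benjamini-Hochberg over all probe sets (threshold 0.05). A second fit used, for each of 7035 genes, its brightest single-gene probe set. The fit was run on simulated data with independent normal noise, in which few probe sets were changed. In the real data 60.6% were called, so the simulation does not give their rate of false calls. All 50 member symbols matched the RefSeq table of GRCh38.p14 by gene identifier. Summaries and plots used Python 3.11.15, pandas 2.3.3 and matplotlib 3.10.9.

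Values of every array are given for the 8 probe sets with the largest difference, with no gene taken more than once among them. They are also given for each tested variant gene and the brightest tested cluster member of each family. From pathway lists, the 2 largest increases and decreases past the threshold are named. Other genes were named after their values were seen. Members and lists were chosen with earlier results of these data known.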

Additional observations from a re-analysis of the deposited data

How the results depend on the processing

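Results were recomputed without the filter, with a stricter filter, after quantile normalization or median centring, with a floor, a pseudocount of 16, a variance trend, a minimum fold of 1.5, without _x_at probe sets, with probe sets averaged per gene and without each array; among the 16 named probe sets recomputed in this way, no difference reversed; the other named values were not recomputed. Against a minimum fold of 1.5, limma called 6 histone probe sets (3 higher, 3 lower) and 4 genes: 3 cluster genes lower and 0 higher, and 1 variant gene higher and 0 lower (0 and 0 also at an unadjusted p under 0.05). Without _x_at probe sets, 10 probe sets and 8 cluster genes were lower, and 0 cluster genes were higher (0 at an unadjusted p under 0.05). The cluster median was then -0.38. Fewer probe sets were tested in that setting, and both lower counts hold H2AC17. Without the filter, 6 cluster genes were higher, and the medians were -0.060 (cluster) and 0.024 (variant). By probe set, a fit without the filter called 15.9% of all 22215 higher. The variant median was 0.26 with the stricter filter and 0.10 with the pseudocount, and the variance trend called 2 variant genes lower; the cause was not tested. Without single arrays, the cluster median ran from -0.34 to -0.27, the variant median from 0.0044 (without PSMA replicate 4) to 0.22 (without control replicate 2), and 1 to 2 variant genes were lower (2 without control replicate 3). Over the named probe sets, 219 values kept their side of the threshold, 17 lost it and 1, H2AZ1 under the variance trend, gained it. No paired analysis was possible because the groups share no replicate numbers.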

Other observations

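Probe sets annotated to several histone genes were no members and name no gene. All 8 probe sets shared by the H3.3 genes rose on arrays labelled PSMA, with log2 differences from 0.31 to 1.14 (limma, adjusted p under 0.05), where 28.2% of all tested probe sets were called higher. The widest gap among them was 423.6 ± 16.6 on arrays labelled PSMA against 192 ± 8.55 on arrays labelled control (SD, n = 3). The H3-3A probe set of its own did not pass the threshold.

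All 5 probe sets shared among H2B genes fell, with log2 differences from -1.15 to -0.31, against 32.4% called lower among all tested probe sets. Of 4 tested probe sets shared among H2A genes 2 fell, by 1.28 and 1.22 on the log2 scale, and the other 2 did not pass. Each of the 2 that fell is shared by 2 genes. Both probe sets shared by H2A and H3 genes were called lower, 1 of which passed the filter only through the arrays labelled control, and the 1 tested probe set shared by H3 genes alone did not pass (log2 difference -0.15). Of 3 tested probe sets shared by H4 genes 1 rose, 1 was called lower and 1 did not pass, and the lower one passed the filter only through the arrays labelled control. The one that rose did so by 0.29 on the log2 scale, beside 0.31 for the H4C11 probe set. The brightest, which 14 H4 genes share, averaged 8422 ± 137 on arrays labelled PSMA and 7959 ± 107 on arrays labelled control, and was not past the threshold (log2 difference 0.08).

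HP1BP3, a heterochromatin protein with linker histone domains that the naming rule does not take in, averaged 118 ± 5.18 on arrays labelled PSMA and 162 ± 13.3 on arrays labelled control, and fell by 0.45 on the log2 scale (limma adjusted p = 0.00038).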
